A study of Mus musculus with 6 samples.

Results

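The mitosis genes are 57 genes that work from mitotic entry to the separation of the daughter cells, chosen by name and found in the deposited table of gene counts through their Ensembl identifiers. All 57 were among the 24190 genes of the table, and all 57 passed the filter on low counts that left 14692 genes for testing. They were grouped into 8 classes by role. The samples were organoids of MTO54, a parental mouse tumor organoid line whose mutations include Apc and p53, and all 6 samples came from this 1 line. Dissociated cells were seeded in basement membrane extract in complete stem cell medium. After 2 days the 3 control samples received the same medium, and the 3 treated samples received medium with Folfiri for 2 days, which combined 100 nM SN38 with 5FU at 50 μg/μl (a unit copied from the labels, which may be a typing error). The 2 days are those of the labels, and another passage of the study gives a longer treatment for MTOs. 5FU is a pyrimidine analog whose products block thymidylate synthase, and SN38, into which irinotecan is converted, traps topoisomerase I on DNA. RNA with poly(A) tails was sequenced. That passage speaks of biological replicates. The labels do not say whether samples with different replicate numbers came from separate cultures, and where they did not, p-values measure only the spread between these samples, which may be technical.

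Cells enter mitosis when Cdk1 bound to cyclin B is freed of inhibitory phosphates by Cdc25 phosphatases. Chromosomes are then compacted by condensin and attached through their kinetochores to the spindle, and the spindle assembly checkpoint holds back the anaphase-promoting complex (APC/C) until attachment is complete. APC/C with Cdc20 then destroys cyclin B and securin, separase cuts cohesin, and the central spindle directs the cleavage furrow. In the intestine these genes are transcribed mainly in crypt and tumor cells that cycle, and most of them peak in the G2 and M phases. Their promoters are known for a short element, the cell cycle genes homology region (CHR), and for CCAAT boxes. The MuvB core binds the CHR, as part of the repressor DREAM in quiescent cells and with B-Myb and Foxm1 in cycling cells.

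Because the CHR is a sequence closely tied to this gene group, the letters TTTGAA were looked up on both strands in RefSeq promoters of GRCm38.p6, from 250 bases before to 50 bases after the annotated start. A promoter was given for 47 of the 57 members and for 27018 genes in all. Aurkb, Ccna2, Cdc25c, Dlgap5, Foxm1, Incenp, Kif20a, Smc4, Spc24 and Tpx2 had no entry. The following 14 windows of 30 bases show the CHR letters in capitals, aligned at the same column, for members of 7 of the 8 classes, with TTTGAA or its reverse complement TTCAAA as it reads on the strand of the gene. They are those of the 2 members with the lowest fold changes in each class among members with a match that began between 50 bases before and 32 bases after the annotated start, so that 12 bases on either side lay in the given promoter. Bub1b, with a lower fold change than Cdc20 and Ube2c, was left out by this limit, since its match began 40 bases after the start. A window of the chromosomal passenger class, which also has such a match, is not reported here. Other members have matches as close to the start, among them Cdk1, Cenpf, Kif23 and Cdca5.
Ccnb2, chr9:70421533-70421562, minus strand: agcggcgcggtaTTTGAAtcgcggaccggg
Cdca3, chr6:124830194-124830223, plus strand: cgtggagggaagTTTGAAactccgggcttt
Cdc20, chr4:118437344-118437373, minus strand: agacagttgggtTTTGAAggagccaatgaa
Ube2c, chr2:164769888-164769917, plus strand: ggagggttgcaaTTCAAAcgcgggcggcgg
Kif11, chr19:37376351-37376380, plus strand: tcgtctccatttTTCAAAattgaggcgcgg
Kif4, chrX:100626072-100626101, plus strand: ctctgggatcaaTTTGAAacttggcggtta
Cenpa, chr5:30666890-30666919, plus strand: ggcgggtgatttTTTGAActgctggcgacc
Spc25, chr2:69206172-69206201, minus strand: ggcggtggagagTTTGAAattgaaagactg
Ncapg, chr5:45669883-45669912, plus strand: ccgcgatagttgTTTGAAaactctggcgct
Espl1, chr15:102296254-102296283, plus strand: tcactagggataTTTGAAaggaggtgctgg
Hmmr, chr11:40733412-40733441, minus strand: agttgaggtaaaTTTGAAttcaggcgagct
Ckap2l, chr2:129297225-129297254, minus strand: ttattggcgaatTTCAAAgtcgcggaagcc
Ect2, chr3:27153822-27153851, minus strand: cgactggattttTTTGAAtcggaggcggca
Racgap1, chr15:99651634-99651663, minus strand: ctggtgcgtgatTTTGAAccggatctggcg

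The CHR letters occurred in 36 of the 47 members (76.6%) and in 20.2% of all genes with a promoter. Most of these matches lay near the start. In 32 members (68.1%) a match began within 50 bases on either side of the start, whereas 5.72% of all genes had a match there. Of the 14 windows shown, that of Ccnb2, the cyclin B2 gene, held its match 4 bases after the first transcribed base, and that of Cdc20 18 bases before it. These counts describe letters in a fixed window and are not evidence of binding, and the 50-base bins were chosen after the promoters had been searched.

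The CCAAT letters, also counted on both strands, were present in 34 of the 47 members (72.3%) and in 41.1% of all genes. Both motifs together occurred in 30 members (63.8%) and in 8.97% of all genes. A CCAAT match began between 50 bases and 1 base before the start in 51.1% of members and 10.5% of all genes. The last base of CCAAT can also be the first of TTTGAA, so the searches are not fully independent. The 8-base E2F letters (TTTCCCGC, TTTCGCGC, TTTGCCGC or TTTGGCGC) were found in 4 members (8.51%) and in 2.61% of all genes. Stretches of 90 bases upstream of the start are shown for 3 members whose stretch held both motifs, with both in capitals (ATTGG is CCAAT on the other strand). Stretches of Ccnb2, Kif14 and Mki67, taken in the same way, held CHR letters but no CCAAT letters and are not shown. In Ect2 the CHR match shown here began 138 bases before the start, whereas that of its window above began 15 bases after it.
Cdc20, chr4:118437344-118437433, minus strand: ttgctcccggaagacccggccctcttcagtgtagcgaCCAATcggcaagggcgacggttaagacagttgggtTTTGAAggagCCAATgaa
Ckap2l, chr2:129297213-129297302, minus strand: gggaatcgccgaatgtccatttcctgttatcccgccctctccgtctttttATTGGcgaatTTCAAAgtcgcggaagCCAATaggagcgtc
Ect2, chr3:27153913-27154002, minus strand: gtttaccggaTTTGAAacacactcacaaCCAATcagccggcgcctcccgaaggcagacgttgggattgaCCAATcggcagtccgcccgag

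**Figure D1:**
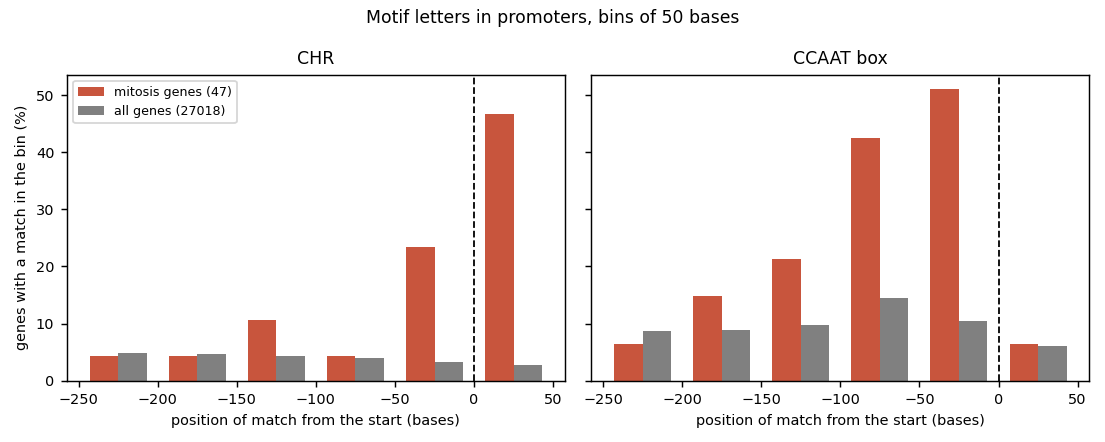
Share of genes with a CHR (left) or CCAAT (right) letter match in each bin of 50 bases, against the position of the match from the annotated start in bases, for the 47 mitosis genes with a promoter (red) and all 27018 genes (grey). The CHR share of mitosis genes is 46.8% in the first 50 bases after the start and 23.4% in the 50 bases before it, against 2.64% and 3.3% of all genes, and the CCAAT share is highest between 100 bases before the start and the start.

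Total counts per sample ranged from 22103591 to 30098210, and no member had fewer than 238 counts in any sample. Levels are given as CPM, read counts scaled to the library size with TMM normalization, for control replicates 1, 2 and 3 and then for Folfiri replicates 1, 2 and 3. Control replicate 1 stood apart from the other controls. Its counts differed from theirs more than those 2 differed from each other, with a chi-square per degree of freedom of 23.7 and 22.4 against 3.84, and among members it was the lowest control for 51 of 57 genes, at a median of 82.2% of the mean of the other controls. Folfiri replicate 3 likewise differed from the other treated samples, at 12.3 and 11.9 against 3.55, and it was the lowest treated sample for 19 members and the highest for 24. Controls 2 and 3 differed from each other by a median of 2.6% over members. The share of counts in mitochondrial genes was 2.09% to 2.36% in controls and 3.95% to 4.44% after Folfiri, and its part in the results was not tested. Of 12 epithelial markers 11 had at least 1 CPM on average in both groups, and of these 6 were called lower, among them Epcam from a mean of 1252 to 653 CPM, 2 higher (Cldn4 and Cdh1) and 3 did not pass. Of 12 immune markers 11 were in the table and summed to 28.3 to 32.2 CPM in controls and 34.6 to 37.1 CPM after Folfiri, with Lyz2, Tyrobp, Csf1r and Itgam at or near 0, and 3 of the 4 with enough counts for the test were called higher, Cd14 from a mean of 6.31 to 12.8 CPM. Of 12 fibroblast and endothelial markers 11 were in the table and summed to 73.7 to 125.6 CPM and 67.6 to 78.4 CPM, most of it Cdh5, with Col1a2, Col3a1, Pdgfrb and Kdr at or near 0. Of the 5 with enough counts for the test Dcn and Pdgfra were called higher, at means of 0.024 and 0.397 CPM in controls and 0.694 and 1.15 CPM after Folfiri, Col1a1 was called lower, from 0.842 to 0.301 CPM, and 2 did not pass. The part of these markers in the results was not tested.

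After Folfiri 53 of the 57 mitosis genes were lower, 1 was higher and 3 did not pass the test (edgeR quasi-likelihood test, adjusted p threshold of 0.05). Of all genes tested, 38.8% were called lower and 40.3% higher, and 79.1% in either direction, so that calls over all genes were split nearly evenly between the directions. The 1 member that rose was Foxm1, the transcription factor of G2 and M phase genes. Birc5, Cdca5 and Pttg1 were the 3 that did not pass. The median log2 fold change was -0.81 over the 57 members, a 1.75-fold lower level, and 0.02 over all genes tested. A log2 fold change of -1 or lower was reached by 22 members, and 16.8% of all genes were called at that size. The groups did not overlap in 52 members, 51 of them lower after Folfiri, whereas 81.4% of all genes tested had groups that did not overlap and 39.9% had them with the treated samples lower.

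Summed over the 57 genes, the level was 9363, 11130 and 11370 CPM in controls and 5604, 5769 and 5628 CPM after Folfiri. All 3 treated samples lay below all 3 controls and within a narrow range. The means were 10620 ± 1096 CPM and 5667 ± 88.8 CPM (SD, n = 3 each), so the treated sum was 53.4% of the control sum. The 57 genes took 0.904%, 0.981% and 1.0% of all counts in the controls and 0.620%, 0.634% and 0.616% in the treated samples, a share that amounts to scaling by total counts and fell by less than the TMM-normalized sum. The spread between replicates was also unequal, with a median coefficient of variation over members of 11.4% in controls and 4.17% after Folfiri. In bulk RNA, fewer cells in G2 and M phase and less of these transcripts per cell cannot be told apart.

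**Figure D2:**
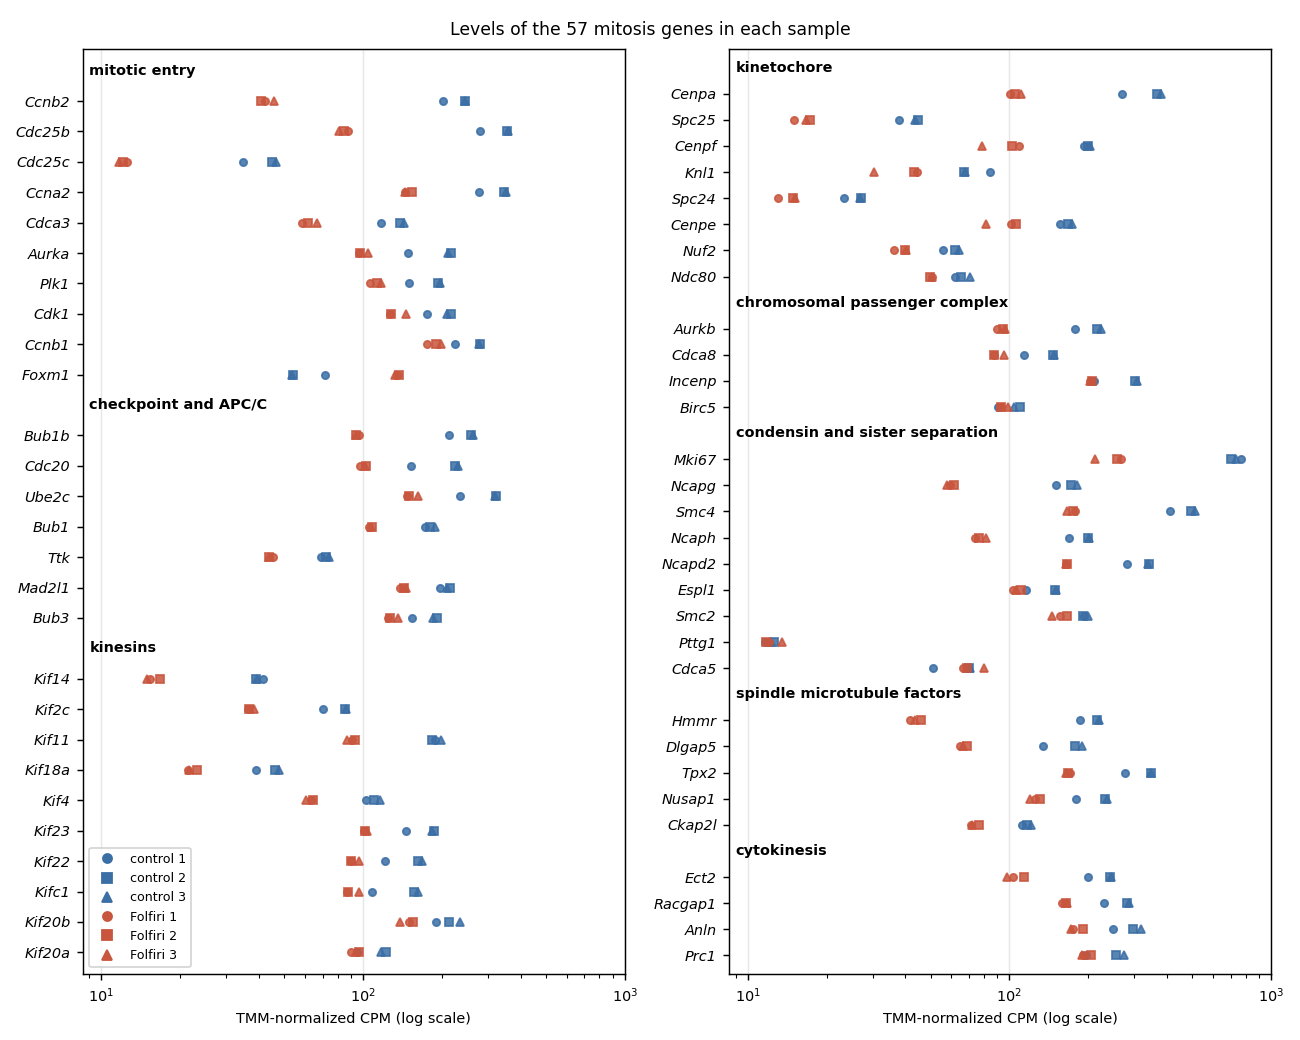
TMM-normalized CPM on a log axis for each of the 57 mitosis genes, by class and ordered by fold change within a class, with controls in blue and Folfiri samples in red (circle, square and triangle for replicates 1, 2 and 3). Red points lie left of blue points in most rows, with Foxm1 reversed and Birc5, Pttg1, Cdca5, Kif20a and Prc1 overlapping.

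Scaling and gene overlap bear on these values. Scaling by total counts alone moved the median of all genes tested from 0.02 to 0.30 and the share of higher calls among all calls from 51.0% to 63.3%. Under it the median of the members was -0.53, 47 members were lower and 4 higher, Birc5, Cdca5 and Pttg1 joining Foxm1 as higher, and the sign of Kif20a turned to 0.03 without a call. Each member was shifted by 0.27 to 0.29 on the log2 scale, which turned the sign or moved the value by over 1.5 times in 25 of the 54 called members, such as Ccnb1 at -0.18 (adjusted p = 0.0395). The class medians of checkpoint and APC/C genes, kinesins and cytokinesis genes became -0.48, -0.50 and -0.41. Leaving out control replicate 1 gave a median of -0.86 with 54 members lower and Foxm1 higher. Exons of 17 members overlapped exons of other genes, and where the counting did not use strand, or the genes share a strand, reads of the overlap cannot be told apart. Besides the 5 overlaps given with their genes below, those on the other strand were 944 bases of Ncapg with Lcorl, 832 of Kif4 with Pdzd11, 623 of Cdc25c with Gm3550, 510 of Ccna2 with Exosc9, 232 of Cdca8 with 9930104L06Rik, 181 of Ckap2l with Gm14024, 172 of Nusap1 with Oip5, 156 of Plk1 with Gm44985, 96 of Kif22 with Gm31749, 53 of Cdc20 with Elovl1 and 11 of Kif18a with Mettl15. On the same strand Ncapd2 shared 472 bases with Scarna10 and Gm28967. Of the 40 members without such an overlap 37 were lower, with a median of -0.81.

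The mitotic entry class holds 10 genes. Of these 9 fell and Foxm1 rose, with a median log2 fold change of -1.02. Ccnb2, the gene of cyclin B2 (chr9:70407692-70421547, minus strand, GENCODE), had 203, 245 and 245 CPM in controls and 42.0, 40.7 and 45.7 CPM after Folfiri. Every treated sample lay far below every control. This was a 5.39-fold lower level, the lowest fold change of all 57 members, with a log2 fold change of -2.43 (adjusted p = 7.77e-09, SE 0.09). Cdc25b encodes a phosphatase that activates Cdk1, and its exons overlap those of Spef1 on the other strand by 92 bases. Its levels were 279, 354 and 359 CPM and 87.5, 84.7 and 81.2 CPM. The groups were again well apart, and Cdc25b fell with a log2 fold change of -1.97 (adjusted p = 4.86e-08, SE 0.10). Cdc25c, which encodes the related phosphatase, fell with a log2 fold change of -1.79.

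Cdk1, the kinase that drives entry into mitosis, and its partner Ccnb1, cyclin B1, fell less. Cdk1 had 176, 217 and 209.8 CPM in controls and 127, 128 and 145 CPM after Folfiri. Folfiri replicate 3 was the highest treated sample but stayed below control replicate 1. The log2 fold change of -0.59 (adjusted p = 0.000162, SE 0.09) was a 1.51-fold decrease. For Ccnb1 the values were 225, 279 and 276 CPM and 176, 190.4 and 198 CPM. The treated samples were all lower, with a gap of the lowest control to the highest treated sample that was smaller than the spread between controls, and the fit gave a log2 fold change of -0.47 (adjusted p = 0.000919, SE 0.09). Plk1, the Polo-like kinase of mitotic entry, showed 149.5, 194 and 196 CPM and 106, 113 and 117 CPM. Its groups did not overlap, and it fell with a log2 fold change of -0.68 (adjusted p = 0.000115, SE 0.10). Ccna2 (cyclin A2), Cdca3 (a trigger of mitotic entry) and Aurka (Aurora A) lay between these with log2 fold changes of -1.14, -1.09 and -0.95.

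Foxm1 (chr6:128362967-128376146, plus strand) went the other way. Its levels were 71.6, 54.0 and 53.3 CPM in controls and 134, 137 and 132 CPM after Folfiri. The treated samples were close to each other and all above the controls, of which replicate 1 was the highest. This was a 2.25-fold rise, with a log2 fold change of 1.17 (adjusted p = 2.62e-06, SE 0.11), and the log2 fold change lay between 1.09 and 1.44 in all 14 settings, the one reported included. Exons of Foxm1 share 241 of 5754 bases with Tex52 and Gm44596 on the same strand, whose part was not tested. Foxm1 and Mybl2, which encodes B-Myb, were thus both higher while 53 mitosis genes were lower. Mybl2, counted among other G2 and M phase genes, had 56.6, 42.9 and 40.9 CPM and 74.0, 79.6 and 81.5 CPM. Its treated samples also lay above all controls, with a log2 fold change of 0.74 (adjusted p = 0.000139, SE 0.12).

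All 7 genes of the checkpoint and APC/C class fell, with a median of -0.76. Bub1b encodes BubR1, a subunit of the inhibitor that the checkpoint builds against APC/C. It had 212, 259 and 264 CPM in controls and 96.2, 94.0 and 94.3 CPM after Folfiri. The treated samples were close together and far below the controls, and the log2 fold change of -1.37 (adjusted p = 2.27e-07, SE 0.09) was the lowest of the class. Bub3, the adaptor that binds BubR1 at kinetochores, had 154, 192 and 185 CPM and 124, 126 and 136 CPM. The groups were separate but close, with a log2 fold change of -0.46 (adjusted p = 0.000741, SE 0.09), the highest of the class. The Cdc20 gene, which encodes the APC/C activator, had 153, 224 and 230.2 CPM and 97.5, 102 and 102 CPM. Control replicate 1 lay nearer to the treated samples than the other controls did, and the log2 fold change of -1.01 (adjusted p = 4e-05, SE 0.13) has one of the wider errors. Ube2c, the ubiquitin-conjugating enzyme of APC/C, had the highest level of the class at 235, 321 and 319.6 CPM and 147, 149.9 and 163 CPM. It fell with a log2 fold change of -0.93 (adjusted p = 2.37e-05, SE 0.11), and 592 bases of its exons overlap Tnnc2 on the other strand. Bub1, Ttk (Mps1) and Mad2l1 (Mad2), which act in the same checkpoint, had log2 fold changes of -0.76, -0.70 and -0.54.

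The 10 kinesins, the motors of spindle and midbody, all fell, with a median of -0.78, although Kif20a was at 0.03 without a call under total counts. Kif14, a motor of the midbody, had 41.5, 38.9 and 39.3 CPM in controls and 15.3, 16.7 and 14.9 CPM after Folfiri. Here control replicate 1 was not the low one, and the groups were far apart, with a log2 fold change of -1.35 (adjusted p = 1.56e-07, SE 0.08). Kif20a, the central spindle motor, was at the other end, with 94.4, 122 and 117 CPM and 89.5, 96.1 and 94.2 CPM. Folfiri replicate 2 lay above control replicate 1, so the groups overlapped. The log2 fold change of -0.25 (adjusted p = 0.0312, SE 0.10) passed the threshold, but adjusted p was 0.0609 to 0.123 in 5 of the 6 fits that left out 1 sample, 0.0688 with upper quartile scaling and 0.0747 with a filter at a mean of 10 CPM. Of 4338 exonic bases of Kif20a, 1271 overlap Cdc23 on the other strand, and Cdc23 did not pass the test at a log2 fold change of 0.12 (adjusted p = 0.175, SE 0.07). Kif20b, the highest of the class by CPM, had 189, 213 and 235 CPM and 149, 156 and 138 CPM. It fell without overlap, with a log2 fold change of -0.52 (adjusted p = 0.000277, SE 0.09). Kif2c (the depolymerase MCAK), Kif11 (Eg5, which separates the poles) and Kif18a fell by 1.12, 1.08 and 1.0 on the log2 scale, and Kif4, Kif23, Kif22 and Kifc1 by 0.81, 0.76, 0.71 and 0.66.

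All 8 kinetochore genes fell, with a median of -0.87. Cenpa, the histone H3 variant that marks centromeres, had 269, 367 and 379 CPM in controls and 100.3, 105 and 111 CPM after Folfiri. It was both the highest of the class by CPM and the one with the lowest fold change, and its groups were far apart, with a log2 fold change of -1.68 (adjusted p = 4.43e-07, SE 0.12). Within the Ndc80 complex, which binds microtubules as a tetramer, fold changes covered most of the range of the class. Spc25 and Spc24 had log2 fold changes of -1.36 and -0.84, Nuf2 had -0.65, and Ndc80 had the highest fold change of the class. Its levels were 61.8, 65.2 and 70.4 CPM and 50.4, 49.5 and 50.7 CPM. The groups did not overlap, and the call at a log2 fold change of -0.39 (adjusted p = 0.000655, SE 0.08) held except under scaling by total counts, where it was -0.11 with an adjusted p of 0.168. Cenpf, Knl1 and Cenpe, large outer kinetochore proteins, had -1.04, -0.89 and -0.78, and in each of these Folfiri replicate 3 was the lowest sample.

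The chromosomal passenger complex, which corrects attachments and later acts at the furrow, had the median nearest to 0 of the 8 classes, at -0.50 (-0.22 under total counts), with 3 of 4 genes lower and 1 not past the test. Its kinase Aurkb (Aurora B) had 178, 217 and 225 CPM in controls and 89.6, 94.6 and 96.3 CPM after Folfiri. All treated samples were at about the same level below the controls, with a log2 fold change of -1.14 (adjusted p = 1.04e-06, SE 0.09). The scaffold Incenp had 210.1, 301 and 308 CPM and 203, 207 and 204 CPM. Control replicate 1 lay just above the treated samples and well below the other controls, and the log2 fold change of -0.42 (adjusted p = 0.0105, SE 0.13) passed, a call that was lost under scaling by total counts (-0.13, adjusted p = 0.265). Birc5, survivin, had 90.5, 109.5 and 105 CPM and 92.6, 93.2 and 98.7 CPM. These ranges overlapped, and the log2 fold change of -0.10 (adjusted p = 0.293, SE 0.08) did not pass. Without control replicate 1 it was -0.17 with an adjusted p of 0.0179, and with total counts 0.18 with an adjusted p of 0.0298, so its direction depended on the scaling. Cdca8, borealin, fell with a log2 fold change of -0.59.

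In the class of condensin and sister separation 7 of 9 genes fell, with a median of -0.96. Mki67, which encodes Ki-67, the coat protein of mitotic chromosomes and a common marker of cycling cells, was the most abundant of all 57 by CPM. It had 769, 701 and 736 CPM in controls and 267, 258 and 212 CPM after Folfiri. Control replicate 1 was the highest control here and Folfiri replicate 3 the lowest treated sample, and the groups were far apart, with a log2 fold change of -1.58 (adjusted p = 1.72e-07, SE 0.10). The condensin I subunits Ncapg, Ncaph and Ncapd2 had log2 fold changes of -1.50, -1.30 and -0.96, and of the ATPase core that condensins share, Smc4 had -1.45. The other ATPase, Smc2, had 192, 192 and 200.4 CPM and 155, 166 and 145 CPM. The treated samples were lower by a small margin, with a log2 fold change of -0.32 (adjusted p = 0.00178, SE 0.07) that was -0.05 with an adjusted p of 0.559 under total counts.

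The regulators of sister separation lay closer between the groups. Espl1, separase, fell with a log2 fold change of -0.38, which was -0.10 with an adjusted p of 0.285 under total counts. Its inhibitor Pttg1, securin, had 11.7, 12.6 and 12.2 CPM and 12.1, 11.8 and 13.5 CPM. The samples of both groups were mixed, and the log2 fold change of 0.03 (adjusted p = 0.762, SE 0.10) did not pass. Cdca5, sororin, which protects cohesin, had 50.9, 70.1 and 70.5 CPM and 66.6, 69.1 and 79.8 CPM. Control replicate 1 was the lowest and Folfiri replicate 3 the highest, while the other 4 samples lay between 66.6 and 70.5 CPM. Its log2 fold change of 0.17 (adjusted p = 0.224, SE 0.12) did not pass either. With 1 sample left out, that of Cdca5 ranged from 0.03 to 0.24. Under scaling by total counts both were called higher, Cdca5 at 0.46 with an adjusted p of 0.00363 and Pttg1 at 0.31 with an adjusted p of 0.0213.

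All 5 spindle microtubule factors fell, with a median of -0.95. Hmmr (chr11:40701395-40733422, minus strand), a spindle protein also known as the hyaluronan-mediated motility receptor, had 186, 217 and 220.2 CPM in controls and 41.8, 45.9 and 43.7 CPM after Folfiri. The treated samples formed a tight group far below the controls. This was a 4.74-fold lower level and the second lowest fold change of all members, with a log2 fold change of -2.25 (adjusted p = 7.12e-09, SE 0.09). Tpx2, the activator of Aurora A, was the highest of the class by CPM with 275, 348 and 349 CPM and 169.7, 168 and 165 CPM. It fell without overlap, with a log2 fold change of -0.95 (adjusted p = 4.88e-06, SE 0.10). Ckap2l had 112, 117 and 121 CPM and 71.6, 76.2 and 72.2 CPM. The controls were close to each other here, and the log2 fold change of -0.67 (adjusted p = 5.67e-06, SE 0.07) was the highest of the class. Dlgap5 (HURP) and Nusap1 had log2 fold changes of -1.33 and -0.78.

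All 4 cytokinesis genes fell, with a median of -0.69. Ect2, the exchange factor that activates RhoA at the furrow, had 199, 242 and 244 CPM in controls and 104, 114 and 97.9 CPM after Folfiri. The groups were clearly apart, with a log2 fold change of -1.12 (adjusted p = 1.46e-06, SE 0.10). The furrow scaffold Anln, anillin, had 248, 296 and 317 CPM and 175, 191 and 172 CPM. It also fell without overlap, with a log2 fold change of -0.68 (adjusted p = 6.54e-05, SE 0.10). Prc1, which bundles microtubules of the central spindle, had 196, 256 and 274 CPM and 191, 206 and 189.8 CPM. Folfiri replicate 2 was higher than control replicate 1, and the log2 fold change of -0.31 (adjusted p = 0.0263, SE 0.11) missed the threshold in 4 of the 6 fits that left out 1 sample (adjusted p of 0.0711 to 0.1), under total counts (-0.02) and with a filter at a mean of 10 CPM (adjusted p = 0.0595). Prc1 shares 911 exonic bases with Rccd1 on the other strand. Racgap1, the centralspindlin partner of Kif23, had a log2 fold change of -0.71.

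Summed by class, all 8 classes were lower in every treated sample than in every control. The treated sum was lowest in spindle microtubule factors at 46.2% of the control sum, in condensin and sister separation at 46.4% and in kinetochore genes at 47.1%. Mitotic entry genes stood at 52.0%, checkpoint and APC/C genes at 56.1%, kinesins at 60.1%, cytokinesis genes at 62.8% and the chromosomal passenger complex at 67.4%. Sums are led by the abundant members, such as Mki67 and Smc4 in the condensin class. The difference between classes was not tested.

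**Figure D3:**
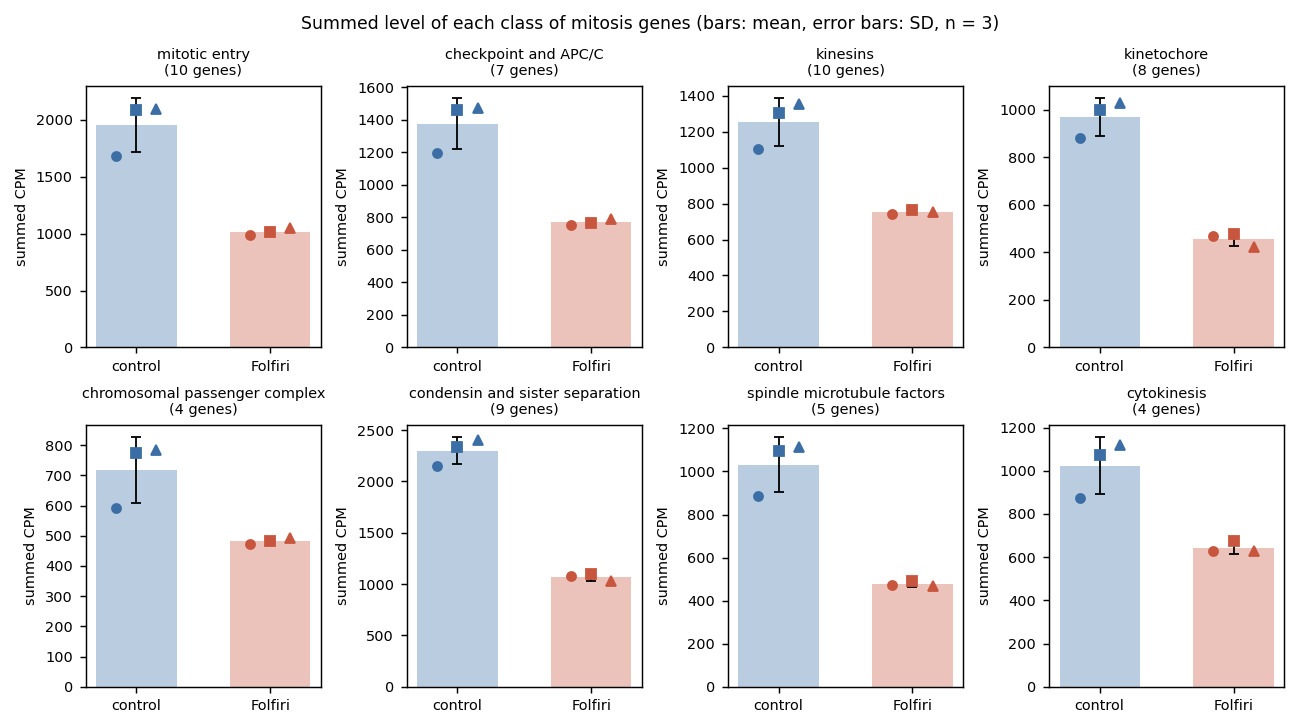
Summed TMM-normalized CPM of each of the 8 classes of mitosis genes in controls (blue) and Folfiri samples (red). Bars are means, error bars SD (n = 3), and symbols the samples (circle, square and triangle for replicates 1, 2 and 3). In each class the 3 treated samples lie below the 3 controls and control replicate 1 is the lowest control, with mitotic entry genes at 1681, 2089 and 2092 CPM in controls and 985, 1018 and 1048 CPM after Folfiri.

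Between genes, levels were compared per kilobase of exon. In controls Ccnb2 was the highest at 151 CPM per kilobase, followed by Ube2c at 112 and Cdc20 at 108, and the last 2 did not differ beyond their spread between replicates, with coefficients of variation of 16.8% and 21.2%. Kif14 was the lowest at 3.86 CPM per kilobase. After Folfiri Ccnb2 was at 27.95 CPM per kilobase, below Ube2c at 58.9 and Cdc20 at 53.9. So Ccnb2 was the highest of the 57 in controls and was not after treatment.

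Ratios between members within a sample do not depend on the scaling between samples. They were taken as log2 of the ratio of counts for 16 pairs of genes whose products act together or are related. Each was compared by an exact two-sided permutation test, in which 3 samples against 3 cannot give a p below 0.1. In all 16 pairs the 3 treated samples lay on 1 side of the 3 controls, with p = 0.1 by the exact test and adjusted p = 0.1 over the 16 pairs, so that no ratio could pass a threshold of 0.05. Over all 1596 pairs that the 57 members form, the ratio did not overlap between the groups in 78.9%, so separation alone does not set the chosen pairs apart. The differences ranged widely. The ratio of Ccnb1 to Ccnb2 was 0.15, 0.19 and 0.17 in controls and 2.06, 2.22 and 2.12 after Folfiri. The cyclin B genes were thus nearly equal in counts in all controls and far apart in all treated samples, a difference of 1.96 or 3.90-fold.

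Other pairs showed smaller differences. Ncapg to Smc2, both of condensin I, was -0.35, -0.15 and -0.14 in controls and -1.39, -1.44 and -1.33 after Folfiri. The difference of -1.17 was several times the spread of either group. Bub1b to Bub3, checkpoint partners, was 0.46, 0.43 and 0.51 in controls and -0.37, -0.42 and -0.53 after Folfiri, so that Bub1b had more counts than Bub3 in every control and fewer in every treated sample. Aurkb to Incenp differed by -0.74, Nuf2 to Spc25 by 0.71 and Ccnb1 to Ccna2 by 0.67. Cdc20 to its inhibitor Mad2l1 differed by -0.45, and Ndc80 to Spc24 by 0.45. At the other end, Kif23 to Racgap1, the centralspindlin subunits, was -0.66, -0.59 and -0.65 in controls and -0.66, -0.69 and -0.69 after Folfiri. The groups touched when rounded, and the difference was -0.05. Ccnb1 to Cdk1 differed by 0.13, Ncaph to Smc4 by 0.15 and Cdc25b to Cdc25c by -0.18. The remaining pairs were Pttg1 to Espl1 at 0.40, Birc5 to Incenp at 0.30, Kif20a to Kif20b at 0.28 and Aurka to Aurkb at 0.20.

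**Figure D4:**
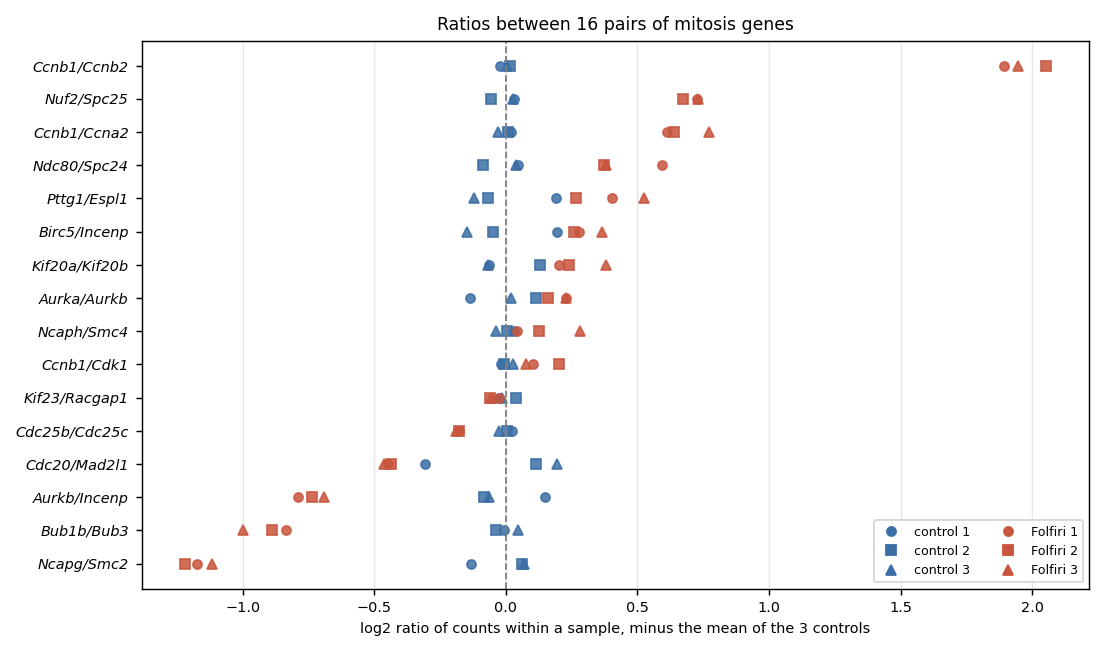
Log2 ratio of counts for 16 pairs of mitosis genes in each sample, minus the mean of the 3 controls, with controls in blue and Folfiri samples in red (circle, square and triangle for replicates 1, 2 and 3). Ccnb1/Ccnb2 lies farthest to the right at a difference of 1.96 and Ncapg/Smc2 farthest to the left at -1.17, while Kif23/Racgap1 stays at -0.05.

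Fold changes of members with and without the CHR letters overlapped. The median log2 fold change was -0.85 over the 36 members with a match, which ranged from -2.43 to 0.17, and -0.76 over those without one, which ranged from -1.97 to 0.03. These ranges overlap over most of their length, and no test was made. In the shorter window from 100 bases before to 50 after the start the order of the medians turned, to -0.756 with a match and -0.783 without. For the CCAAT letters the medians were -0.87 with a match and -0.65 without, and -0.80 and -0.68 in the shorter window, and members with both motifs had -0.94, also with no test. Cdca5, which did not pass, holds CHR letters 17 and 9 bases before its start, and neither Birc5 nor Pttg1 holds them in the window. Cdc25b, with the third lowest fold change of the 57, has none either.

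Other lists of cell cycle genes were read in the same fit. Of 40 other G2 and M phase genes 27 were lower and 6 higher, with a median of -0.62 that was -0.34 under total counts. Depdc1a and Top2a, the topoisomerase II of mitotic chromosomes, had the lowest fold changes at -2.36 and -1.65, and Trip13, which remodels Mad2, the highest at 1.0. Of 15 APC/C subunits 8 were lower and 5 higher, beside 38.8% and 40.3% of all genes tested, with a median of -0.42 that was -0.15 under total counts and -0.19 with a filter at a mean of 10 CPM. Anapc1 had -1.08 and Anapc10 1.09. In the list of 15 cohesin and condensin II genes 8 were lower and 2 higher, with a median of -0.48 that was -0.21 under total counts. Ncapg2 and Ncaph2 of condensin II had -1.35 and -1.28, near their condensin I counterparts Ncapg and Ncaph at -1.50 and -1.30. Ncapd3, the counterpart of Ncapd2 at -0.96, had -0.68. The highest fold change of the list was that of Mau2 at 0.92.

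The list of inner kinetochore and Mis12 complex genes also holds other genes. Among them are Zwilch and others of the complex that recruits dynein, and a gene of the checkpoint. In all it held 25 genes. Of these 11 were lower and 12 higher, near the shares of 38.8% and 40.3% over all genes tested, and their median of 0.02 was 0.31 under total counts and 0.45 with a filter at a mean of 10 CPM. Cenpp and Zwilch had -1.87 and -1.63, and Mis12 and Dsn1 1.23 and 1.0. Mis12 had 38.5, 26.8 and 25.9 CPM in controls and 69.9, 74.1 and 70.8 CPM after Folfiri. All treated samples lay above all controls. Of 19 regulators of Cdk1 and subunits of DREAM 10 were lower and 6 higher, with a median of -0.27 that was 0.013 under total counts. Cdkn1a, the inhibitor p21, had 238, 276 and 254 CPM and 82.8, 77.8 and 87.7 CPM in these p53-mutant organoids. It fell with a log2 fold change of -1.63 (adjusted p = 3.91e-08, SE 0.08). Subunits of DREAM went in both directions, with E2f5 lower at a log2 fold change of -1.02 and E2f4 higher at 0.85.

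DNA replication genes, which act in S phase before these genes, went mostly the other way. Of 48, 30 were higher and 12 lower, beside 40.3% and 38.8% of all genes tested. Their median was 0.49, and it was 0.77 under total counts, where that of all genes tested was 0.30. Their summed level was 3649, 3427 and 3338 CPM in controls and 3883, 4011 and 4160 CPM after Folfiri. The treated samples all lay above the controls by this sum, which was the reverse of the mitosis genes. Orc1 and Mcm10, which act in origin licensing and firing, had the highest fold changes at 2.16 and 2.02, and Lig1 and Pola1, DNA ligase I and the catalytic subunit of polymerase alpha, the lowest at -1.64 and -1.27. Control replicate 1 had DNA replication genes at a median of 113% of the other controls, while it had the mitosis genes at 82.2%, so it lay on the side of the treated samples for both lists. The median and calls of the mitosis genes without it are given above.

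**Figure D5:**
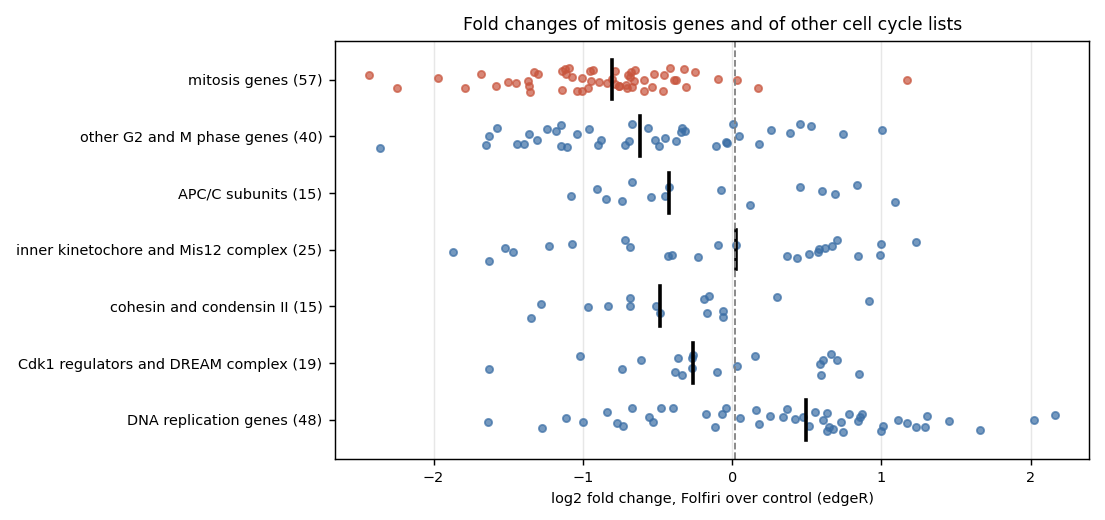
Fitted log2 fold change, Folfiri over control, of each gene of the mitosis genes (red) and of 6 other cell cycle lists (blue), with the median of each list as a black bar and the median of all genes tested as a dashed line at 0.02. The bar of the mitosis genes stands at -0.81, farthest to the left, and that of the DNA replication genes at 0.49, and Foxm1 is the only red point above 1.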

How the data were processed

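RNA from 6 samples of 1 mouse organoid line, 3 controls and 3 treated with Folfiri, was sequenced after poly(A) selection. The authors aligned reads with STAR (version 2.5.2 per the submitters' processing notes) to GRCm38 with GENCODE vM25 annotation, used Sambamba for sorting and Rsubread to count the reads of each gene, and deposited these raw counts without normalization. The strand setting and the treatment of reads with several positions are not given in the sources used here, so the 17 members whose exons overlap other genes are named with the overlap, and reads shared with near-identical copies of a gene were not assessed. Totals of 22103591 to 30098210 counts set the precision.

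Samples were grouped by their treatment label. In R 4.3.3, edgeR 4.0.16 was run on the deposited counts with its default expression filter, TMM factors and quasi-likelihood F-tests. P-values were adjusted over all 14692 genes by Benjamini-Hochberg, and the threshold was 0.05. The script was also tested on simulated data. CPM per kilobase divides by the exonic length of the gene. Symbols and positions came from GENCODE vM21, on the same build, which matched 24168 of 24190 identifiers. Ratios used counts plus 2. Promoters came from RefSeq (GRCm38.p6). A few items are not reported here. The motif position bins were chosen after the promoters had been searched.

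The members and lists were chosen with earlier results of these data known. Named with values in every sample were, per class, the members past the threshold with the lowest and the highest fold change, the most abundant member, 7 further genes (Cdk1, Ccnb1, Plk1, Aurkb, Cdc20, Mki67 and Foxm1) and members not past the threshold or opposite to the majority. From other lists, up to 2 genes at each end of the fold changes were named. Cdc23 was named after its values were seen, for its overlap with Kif20a, and so was Ncapd3, as the counterpart of Ncapd2. Alternatives were other scalings (DESeq2 size factors, total counts, upper quartile), no filter, a mean of at least 10 CPM, the Wald test of DESeq2 1.42.0, a replicate block, each sample left out in turn and, for ratios, a prior of 0.5 counts.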

Additional observations from a re-analysis of the deposited data

How the results depend on the processing

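The median log2 fold change of the members was -0.81 and stayed negative in all 13 alternatives, and Foxm1 was called higher in each of them. Scaling by total counts alone moved the median to -0.53, and under it Birc5 was at 0.18, Kif20a at 0.031 and the median of Cdk1 regulators and DREAM genes at 0.013. A filter at a mean of 10 CPM left fewer genes to test, and 7743 genes were called in place of 11623. Leaving out 1 sample at a time gave 11021 to 12312 genes called, 52 to 55 members called and member medians of -0.86 to -0.76. The median of the inner kinetochore and Mis12 list, 0.02, was 0.31 under total counts, 0.45 with a filter at a mean of 10 CPM, -0.0024 without a filter and, with 1 sample left out, -0.11 (without control replicate 1) to 0.096, with -0.022 without Folfiri replicate 2. Pttg1, at 0.03, ranged from -0.0245 (without Folfiri replicate 3) to 0.079 with 1 sample left out and reached 0.31 under total counts. The medians of APC/C subunits, cohesin and condensin II genes and the chromosomal passenger complex moved from -0.42, -0.48 and -0.50 to -0.15, -0.21 and -0.22 under total counts. For these values the cause was not tested. Ratios between members kept their sign throughout.

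Replicate numbers are shared by controls and treated samples, but same-numbered samples did not deviate together from their group means, with correlations of 0.027, -0.117 and 0.039 across genes, so the numbers were not taken as pairs. With the replicate number as a block, 11499 genes and 54 members were called, with a member median of -0.81.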
